A study of Gallus gallus with 6 samples.

Results

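BMP family ligands were followed in cultured chicken neural crest cells that expressed 1 of 2 forms of the oncogenic transcription factor v-Myb. The ligands were BMP2, BMP4, BMP5, BMP6, BMP7, GDF5 and GDF6, 7 genes chosen by name, and every probe set whose platform annotation gave exactly 1 of these symbols was taken. A probe set is a group of short probes on the array that together give 1 value for a transcript. The rule found 15 probe sets among 38535 in the table, for 6 of the 7 ligands, and GDF6 was not matched to a probe set. A probe set counted as detected when 3 or more of the 6 arrays had a log2 level of 4 or more. Where a ligand had several probe sets they are numbered, the detected ones first.

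Neural tubes of Brown Leghorn chicken embryos had been explanted into medium that held retroviral particles, and after 3 days the explants were removed so that only the cells that had migrated out stayed in culture. In the v-Myb group (3 arrays) the introduced gene encoded v-Myb-L3,4A-HAER, in which the leucine zipper region is mutated and activity is induced by 4-OH-tamoxifen. In the N118D group (3 arrays) it encoded v-Myb-L3,4A-N118D-HAER, which adds the N118D point mutation in the DNA-binding domain. Both groups received 4-OH-tamoxifen at 200 nM during 4 hours, so each compared culture carried the virus, the altered leucine zipper and the treatment, and no untreated or uninfected culture was analysed here. The cells were a mixed outgrowth rather than a sorted population or a clone. Nothing in the labels says whether the biological replicates came from separate pools of embryos, so the spread behind each p-value is that between these dishes, which may be partly technical.

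BMPs and GDFs are secreted dimers of the TGF-beta superfamily. They bind pairs of type I and type II receptor kinases, which phosphorylate SMAD1, SMAD5 and SMAD9, and these enter the nucleus with SMAD4. BMP4 and BMP7 from the ectoderm and the dorsal neural tube take part in the induction and emigration of the avian neural crest, and BMP2, BMP4 and BMP7 drive crest cells in culture towards autonomic neurons. BMP2 and BMP4 form one subgroup of closely related ligands, BMP5, BMP6 and BMP7 another, and GDF5 and GDF6, known for their part in joint formation, one more. The sequences of these ligands were not used here.

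The arrays had similar medians, 3.08 to 3.11 on the log2 scale, and correlations of 0.992 to 0.998 over 38439 probe sets, of which 16526 were detected. They were less alike in how closely they followed their group means. The array weights that limma estimates from this were 0.40 for v-Myb array 1 and 0.54 for N118D array 1. The other arrays had weights of 0.97 to 2.27. Of 9 neural crest markers 7 were detected, SOX10, FOXD3, TFAP2A, TFAP2B, SNAI2, PAX3 and ETS1, while SOX9 and NGFR were not. Markers of other cells were detected too: 9 of 11 measured epithelial genes, 8 of 10 neural tube genes and 9 of 10 mesenchymal genes.

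Transcripts of 3 ligands, BMP2, BMP5 and BMP7, were detected, and those of BMP4, BMP6 and GDF5 were not. The detected ligands had 4 probe sets over the minimum, 1 for BMP2, 1 for BMP5 and 2 for BMP7, each on all 6 arrays. Over all probe sets with exactly 1 symbol 49.5% were detected by the same rule. The other 11 ligand probe sets lay between 1.85 and 3.71 and reached the minimum on 0 arrays.

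**Figure D1:**
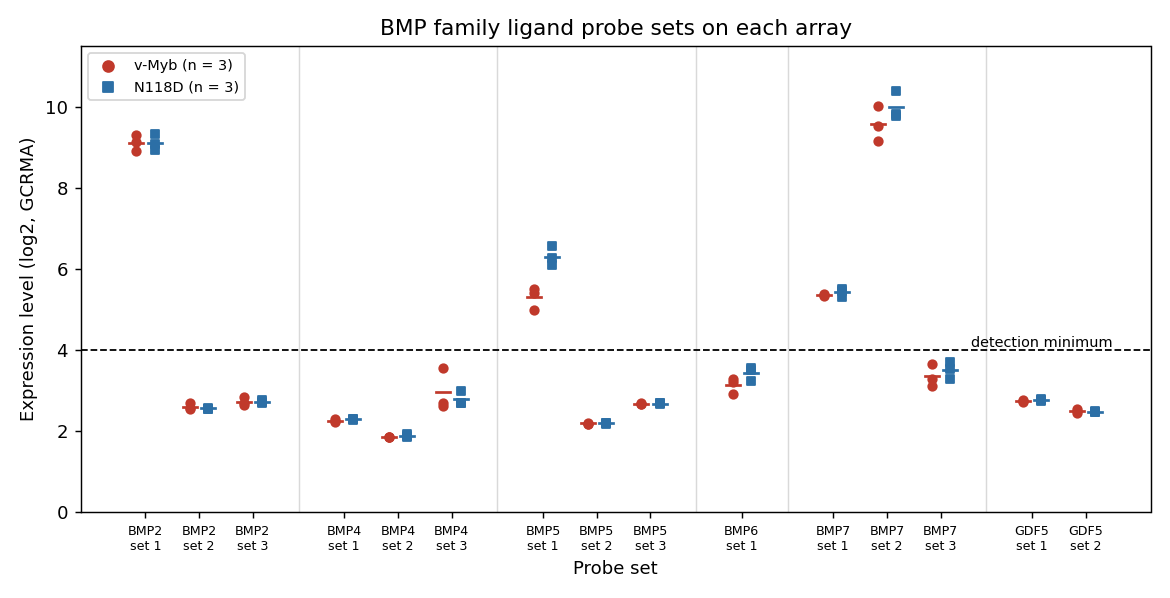
Log2 level (y axis) of the 15 ligand probe sets (x axis, numbered within each gene) on each array, with red circles for the 3 v-Myb arrays, blue squares for the 3 N118D arrays, a short line at each group mean and a dashed line at the detection minimum of 4. Only 4 probe sets, of BMP2, BMP5 and BMP7, lie above the line, and in BMP5 set 1 the groups are separate.

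Nearest above the minimum were BMP5 set 1, with a lowest value of 5.0, and BMP7 set 1, with a lowest value of 5.32. Nearest below were BMP7 set 3, with a highest value of 3.71, BMP6 with 3.57 and BMP4 set 3 with 3.56. The minimum is a setting of the filter. Values under it lie near the floor left by the background correction, so they do not show that a transcript is absent.

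The undetected ligands had the following values. BMP4, the ligand of the dorsal neural tube and ectoderm, had 3 probe sets, of which sets 1 and 2 stayed between 1.85 and 2.30. Set 3, annotated to the RefSeq mRNA of BMP4, was at 3.56, 2.62 and 2.69 on v-Myb arrays 1, 2 and 3 and at 3.00, 2.70 and 2.70 on the N118D arrays. Its highest values were thus on both arrays numbered 1, and the groups overlapped. The mean level of the 8 detected neural tube markers on these arrays was 9.66, 8.47 and 8.41 in v-Myb and 9.40, 8.91 and 9.36 in N118D cultures. It was highest on the same 2 arrays, but N118D array 3 was nearly level with N118D array 1. HES5 alone ran from 3.41 on v-Myb array 3 to 9.69 on v-Myb array 1, so the mean depends much on this gene. HES5, PAX6 and NES were highest on v-Myb array 1, and SOX3, WNT3A and ZIC1 on N118D array 1. The remaining markers were not, with OTX2 highest on v-Myb array 3 (8.47) and PAX7 on v-Myb array 2 (10.62). The BMP4 values lie under the detection minimum, and the part of these markers in them was not tested.

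BMP6, of the same subgroup as BMP5 and BMP7, was at 2.91, 3.22 and 3.28 in v-Myb and at 3.51, 3.24 and 3.57 in N118D cultures, and the groups overlapped. GDF5, a ligand of developing joints, had 2 probe sets, both annotated to its RefSeq mRNA, and these stayed between 2.46 and 2.79 on every array. The spread of the GDF5 values was at most 0.09 within either probe set.

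BMP5 was lower in v-Myb than in N118D cultures, with no overlap between the groups. Its detected probe set (set 1, annotated to the RefSeq mRNA) was at 5.41, 5.0 and 5.51 on v-Myb arrays 1, 2 and 3 and at 6.57, 6.26 and 6.09 on N118D arrays 1, 2 and 3. The lowest N118D value lay 0.57 above the highest v-Myb value, and each group spanned about that much, 0.51 and 0.48. Group means were 5.31 ± 0.27 and 6.30 ± 0.24 (SD, n = 3 each). The log2 difference between them was -0.99 (standard error 0.18, 95% confidence interval -1.45 to -0.54). This is a level in N118D cultures 1.99-fold that in v-Myb cultures, with an interval of 1.46 to 2.73.

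The BMP5 difference did not pass the test over the whole array. Its adjusted p in limma, with Benjamini-Hochberg adjustment over 16526 tested probe sets, was 0.9999, and its unadjusted p of 0.00179 was the 9th smallest. An absolute difference as large or larger was measured for 61 tested probe sets, or 0.369%, including this one. The two-sided exact permutation test gave p = 0.1, the smallest possible with 3 against 3 arrays. Leaving out each array in turn gave differences of -1.10 to -0.84, whose sign could not change because the groups did not overlap. In bulk RNA, fewer cells that express a gene and less of its RNA per cell cannot be told apart.

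The other BMP5 probe sets (sets 2 and 3) were not detected, with values of 2.19 to 2.21 and 2.66 to 2.69. They neither repeat nor oppose the difference, which therefore rests on 1 probe set.

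BMP7 varied more between the arrays of a group than between the group means. This ligand of ectoderm, dorsal neural tube and kidney had its brightest probe set (set 2) at 10.02, 9.15 and 9.53 in v-Myb and at 10.40, 9.81 and 9.77 in N118D cultures. The highest values were on both arrays numbered 1, the lowest was on v-Myb array 2, and the groups overlapped because v-Myb array 1 lay above N118D arrays 2 and 3. Means were 9.56 ± 0.44 and 9.99 ± 0.35 (SD, n = 3 each), which differ by -0.43 (standard error 0.27, interval -1.10 to 0.25, adjusted p 0.9999 in limma). The value was -0.22 without v-Myb replicate 2, -0.22 without N118D replicate 1, and -0.65 without v-Myb replicate 1, where the unadjusted p in limma went from 0.172 to 0.0412. Each v-Myb value lay below the N118D value with the same replicate number. With a term for that number in the fit, the standard error was 0.11 and the unadjusted p 0.0173 in limma. The series design names no such block. BMP7 was called in neither of these fits, and without v-Myb replicate 1 its adjusted p in limma was 0.662. Unadjusted p under 0.05 also became more frequent in the whole table, with 666 probe sets with the block and 1206 without v-Myb replicate 1, against 315 in the main fit.

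The second detected BMP7 probe set (set 1) held a narrower range. It was at 5.38, 5.36 and 5.34 in v-Myb and at 5.32, 5.50 and 5.46 in N118D cultures, and the groups overlapped. Its difference of -0.07 had a standard error of 0.08 and an interval of -0.26 to 0.12. The array with the highest value in set 2, N118D array 1, had the lowest in set 1. Set 1 spanned only 0.18 over the 6 arrays, against 1.25 in set 2. Its order of arrays thus rests on small differences and neither repeats nor opposes that of set 2. BMP7 set 3 was not detected, at 3.11 to 3.71.

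BMP2, which with BMP4 forms the other main subgroup, had nearly equal means in both groups. Its detected probe set (set 1, annotated to the RefSeq mRNA) was at 9.13, 8.91 and 9.31 in v-Myb and at 9.33, 9.08 and 8.94 in N118D cultures. Both means were 9.12 ± 0.20 (SD, n = 3 each), and the groups overlapped over nearly their whole range. The difference was 0.0012 with a standard error of 0.15, and the interval of -0.36 to 0.37 leaves room for a level in v-Myb cultures from 0.778 to 1.29 times that in N118D cultures. The remaining BMP2 probe sets stayed between 2.55 and 2.85.

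**Figure D2:**
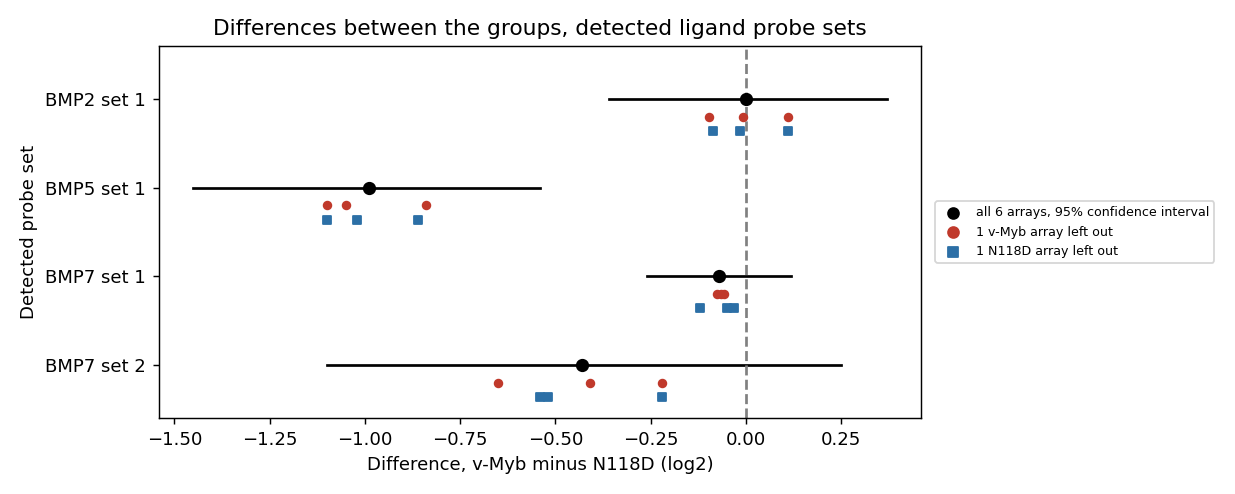
Log2 difference between group means (x axis, v-Myb minus N118D) for the 4 detected ligand probe sets (y axis), with black points and 95% confidence intervals from all 6 arrays, and the values with 1 v-Myb array (red circles) or 1 N118D array (blue squares) left out. BMP5 lies at -0.99 with an interval below 0, while the intervals of BMP2 and of both BMP7 probe sets include 0.

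Of the 4 tested ligand probe sets 0 passed an adjusted p of 0.05 in limma, as in 0.0% of all tested probe sets, and 1, BMP5, had an unadjusted p under 0.05, against 1.91% of all tested. The groups did not overlap in 1 of the 4, BMP5, which was lower in v-Myb cultures, while 3.05% of all tested probe sets were lower without overlap and 5.74% had no overlap in either direction. By sign alone 3 of the 4 were lower, against 50.8% of all tested, with a median difference of -0.25 against -0.0018. This count came to 4 with quantile normalization and without v-Myb replicate 1, v-Myb replicate 3, N118D replicate 2 or N118D replicate 3, where BMP2 also lay below 0.

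Whether the ligands changed unequally was asked within arrays, a comparison added after the values had been seen. The log2 level of BMP5 minus that of BMP2, which takes out what both share on an array, was -3.72, -3.91 and -3.80 in v-Myb and -2.76, -2.83 and -2.85 in N118D cultures. These values were closely grouped, with SDs of 0.09 and 0.05, and the group means differed by -1.0 (n = 3 each). Since BMP2 itself differed by 0.0012, this repeats the BMP5 difference of -0.99 and is not a further result. BMP5 minus BMP7 (set 2) was -4.61, -4.15 and -4.01 against -3.83, -3.55 and -3.68, a difference of -0.57, also without overlap. BMP7 minus BMP2 differed by -0.43, and there the groups overlapped. How often pairs of other probe sets have no overlap was not counted. Over these 3 pairs the two-sided exact permutation p was 0.1, 0.1 and 0.3, or 0.15, 0.15 and 0.3 after Benjamini-Hochberg adjustment, with 0.1 the smallest that 3 against 3 arrays can give. At this number of arrays the test cannot pass a threshold of 0.05, so it does not decide whether BMP5 differed from BMP2 or BMP7 in its response.

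Markers of other cell types moved across the same arrays. The mean level of the 9 detected epithelial markers was 9.83, 8.71 and 9.21 in v-Myb and 10.11, 10.15 and 9.78 in N118D cultures. It was lowest on v-Myb array 2, the array on which BMP5, BMP7 set 2 and BMP2 were also lowest. BMP2 was lowest there by a small margin, at 8.91 against 8.94 on N118D array 3. The mean levels of the detected mesenchymal and skeletal muscle markers were lowest on that array too, at 9.80 and 7.46. In v-Myb cultures 8 of the 9 epithelial genes were lower, where 50.8% of all tested probe sets were lower. The adhesion genes CDH1 and EPCAM differed by -1.10 and -1.29, with standard errors of 0.53 and 0.57 and groups that overlapped. KRT13 differed by -0.68 (standard error 0.16) without overlap. KRT19, KRT7 and TP63 differed by -1.16, -0.66 and -0.38, also without overlap, but by margins of only 0.09, 0.03 and 0.02. CLDN1 and CLDN3 were lower with overlap. Of all tested probe sets 3.05% were lower without overlap. The gene that went the other way was CDH3, also an adhesion gene, at 0.18 (standard error 0.15). On v-Myb array 1 the mean of the epithelial markers (9.83) lay within the N118D range of 9.78 to 10.15. Its genes were not alike there. KRT13, KRT19, KRT7 and TP63 lay below their N118D ranges, and CDH1, EPCAM, CLDN1, CLDN3 and CDH3 within theirs. The probe set taken for KRT19 is annotated under the symbol KRT24. BMP5 on that array (5.41) lay below its N118D range of 6.09 to 6.57. BMP7 set 2 on that array (10.02) lay within its N118D range of 9.77 to 10.40. The part of the epithelial markers in the BMP5 and BMP7 values was not tested.

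The 8 melanocyte markers were higher in v-Myb cultures in 8 of 8 cases, where 50.8% of all tested probe sets were lower. Their mean levels were 11.11 to 11.95 against 10.88 to 11.30, and v-Myb array 2 again stood at one end with 11.95. The 7 detected neural crest markers were at 9.05 to 9.65 against 8.99 to 9.15, and 7 of 7 were higher in v-Myb cultures by sign. Only v-Myb array 2 (9.65) lay above the N118D range, with v-Myb arrays 1 and 3 at 9.05 and 9.09. SNAI2 and PAX3 differed by only 0.02 and 0.04, with standard errors of 0.20 and 0.23. The groups overlapped in every gene but TFAP2B, where 11.66 and 11.67 were the nearest values. Neuronal markers, 7 of 8 detected, ranged from 7.82 to 9.67 in v-Myb and from 8.53 to 8.78 in N118D cultures, and mesenchymal markers from 9.80 to 10.18 and from 9.84 to 10.39. By sign 8 of the 9 detected mesenchymal markers were lower, as in the epithelial list, with mean differences of -0.13 and -0.76. Of the neuronal markers 4 were lower and 3 higher, and of the neural tube markers 5 were lower and 3 higher. The highest neuronal and neural tube levels were on v-Myb array 1, where BMP5 was at 5.41. The neural tube mean depends much on HES5, which was at 9.69 on that array and at 3.41 to 8.28 on the others. The part of these lists in the ligand values was not tested either.

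**Figure D3:**
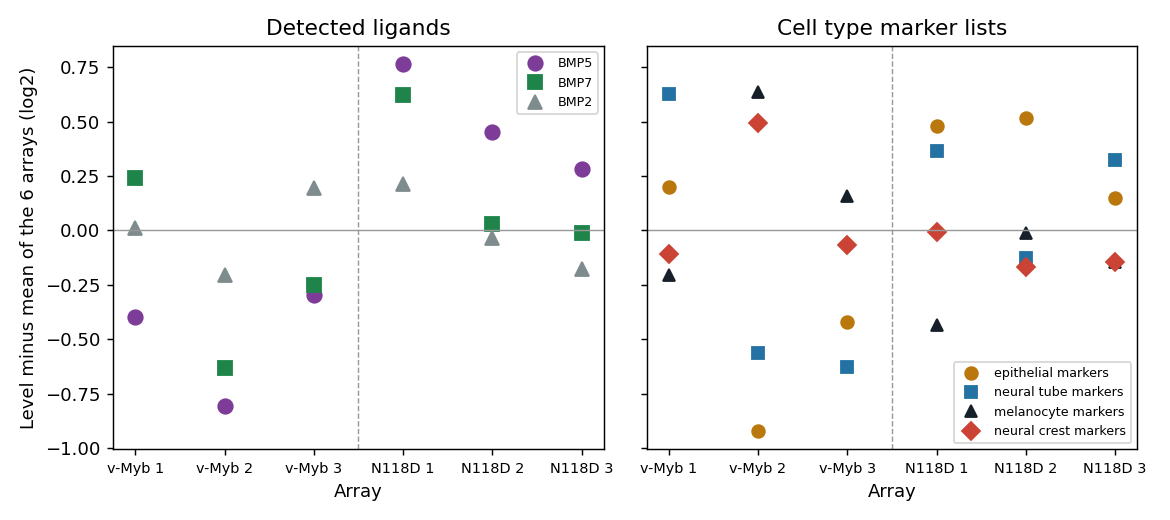
Level on each array minus the mean of the 6 arrays, on the log2 scale (y axis), for the brightest probe set of each detected ligand (left) and for the mean of 4 marker lists (right), with the arrays on the x axis and a dashed line between the groups. BMP5 is below its mean on the 3 v-Myb arrays and above it on the 3 N118D arrays. BMP5, BMP7, BMP2 and the epithelial markers are all lowest on v-Myb array 2, BMP2 by a small margin.

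Other ligands of the superfamily were measured beside the BMPs. The list held 19 names, of which GDF8 and MSTN stand for the same gene. Of its genes 12 had a probe set and 6 of these were detected. All 6 were lower in v-Myb cultures with a median difference of -0.29, where 50.8% of all tested probe sets were lower. In limma 0 of the 6 passed the adjusted threshold, and 1, AMH, had an unadjusted p under 0.05, against 1.91% of all tested. Those with the smallest p were AMH, GDF10, GDF2 and INHBA. AMH, the anti-Müllerian hormone, was at 4.57, 4.28 and 4.52 in v-Myb and at 4.98, 4.58 and 4.85 in N118D cultures. Its groups did not overlap, by the margin between 4.57 and 4.58, and its difference of -0.35 had a standard error of 0.14. GDF10, related to BMP3, differed by -0.85 and GDF2, also known as BMP9 and a ligand of endothelial receptors, by -0.68, with standard errors of 0.52 and 0.43 and groups that overlapped. INHBA, which encodes an activin subunit, differed by -0.22. Without v-Myb replicate 2, or without both arrays numbered 1, only 4 of the 6 were lower, with medians of -0.20 in both cases.

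Among receptors and SMADs the differences ran from -0.26 to 0.09. Of 18 listed genes 15 had a probe set and 10 were detected. Of these 8 were lower and 2 higher, where 50.8% of all tested probe sets were lower. The median was -0.05, and 0 passed in limma, adjusted or unadjusted. The type I receptor gene BMPR1B differed by -0.26 (standard error 0.11), and the type I receptor ACVR1, annotated under the older symbol ATVR1, by -0.10. The type II receptor genes BMPR2 and ACVR2A differed by -0.15 and 0.09. SMAD1, SMAD5 and SMAD9, the mediators of the signal, differed by -0.06, -0.04 and -0.04. Some of these probe sets were dim: BMPR1B at 4.67 to 5.17, BMPR2 at 5.25 to 5.77, SMAD1 at 5.64 to 5.93 and SMAD9 at 5.38 to 5.50. The GCRMA processing of the table shrinks differences between dim probe sets, which limits what these values show. BMPR1A, the other main type I receptor for BMP2 and BMP4, was at 3.46 to 4.09 and did not count as detected. Without both arrays numbered 1 the split was 5 lower and 5 higher.

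Secreted antagonists bind the ligands outside the cell. Of 19 listed genes 14 had a probe set and 10 were detected. Of these 7 were lower and 3 higher, where 50.8% of all tested probe sets were lower. The median was -0.09, and 0 passed the adjusted threshold in limma. CHRDL1, a chordin-like BMP antagonist, was at 6.76, 6.98 and 6.89 in v-Myb and at 7.26, 7.33 and 7.19 in N118D cultures. Like BMP5 it did not overlap between the groups, with a difference of -0.38, a standard error of 0.09 and an unadjusted p of 0.00486 in limma. Among the 10 it was the only 1 without overlap and the only 1 with an unadjusted p under 0.05. Of all tested probe sets 3.05% were lower without overlap, and 1.91% had an unadjusted p under 0.05 in limma. SOSTDC1, an antagonist of BMP and Wnt ligands, was at 7.25 on v-Myb array 1, close to its N118D values of 6.93 to 7.23, and at 5.38 and 5.08 on v-Myb arrays 2 and 3. FST, which encodes follistatin, differed by -0.33, with a further probe set at -0.42, and CHRD by 0.09. NOG, the gene of noggin, differed by -0.14 with a standard error of 0.39.

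Proteases that cleave ligand precursors or antagonists were measured as well. Of 8 listed genes 5 had a probe set and 4 were detected. Of these 3 were lower and 1 higher, where 50.8% of all tested probe sets were lower. The median was -0.09, and 0 passed in limma, adjusted or unadjusted. The proprotein convertase genes PCSK5, PCSK6 and PCSK7 differed by -0.15, 0.15 and -0.09, with standard errors of 0.14, 0.27 and 0.16. The interval for PCSK6, -0.50 to 0.81, leaves room for larger differences in either direction. Further PCSK5 probe sets differed by 0.03 and -0.37, and a further PCSK6 probe set by 0.20. The difference was -0.08 for TLL1, a tolloid-like protease that cuts chordin. FURIN, the best known convertase of BMP precursors, was at 2.88 to 2.90 and not detected.

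Genes that respond to BMP signals showed no common direction. Of 19 listed genes 13 were detected, 7 lower and 6 higher, with a median difference of -0.02, and 0 passed in limma, adjusted or unadjusted. ID1 and ID2, which encode inhibitors of basic helix-loop-helix factors, differed by -0.27 and -0.10, and the homeobox gene MSX2 by -0.27. Further ID2 probe sets disagreed, at 0.04, -0.17 and -0.37. The remaining lower genes were ID3, ID4, MSX1 and BAMBI, at -0.15, -0.02, -0.15 and -0.05. Higher, beside HEY1, were DLX5, DLX6, ATOH8, HAND2 and SNAI2, at 0.15, 0.09, 0.12, 0.05 and 0.02. A further DLX5 probe set differed by 0.52 with a standard error of 0.41. ID1 was at 11.62 on v-Myb array 1 and at 11.06 and 11.15 on v-Myb arrays 2 and 3, against 11.45 to 11.67 in N118D cultures. HEY1, a target of Notch as well as BMP signals, was higher on average by 0.59 with a standard error of 0.34. The number of lower genes in this list was 11 of 13 without v-Myb replicate 2 and 5 of 13 without both arrays numbered 1.

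**Figure D4:**
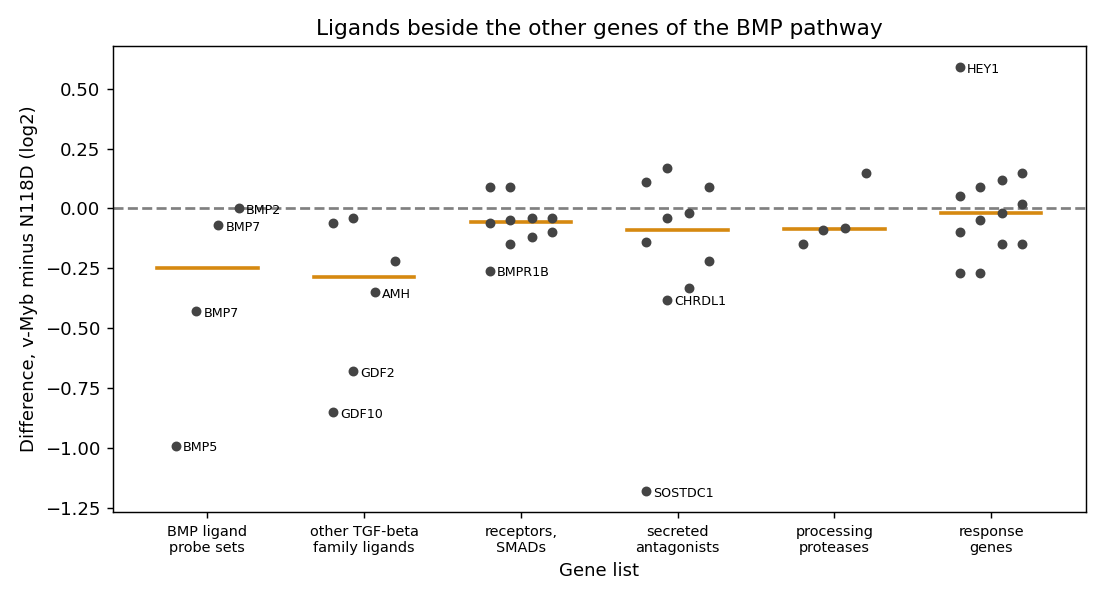
Log2 difference between group means (y axis, v-Myb minus N118D) for the 4 detected ligand probe sets and for each detected gene of 5 BMP pathway lists (x axis), with 1 point per probe set or gene and an orange line at each median. BMP5 is the lowest of the ligand probe sets at -0.99, GDF10 and GDF2 of the list of other ligands lie at -0.85 and -0.68, SOSTDC1 and HEY1 are the lowest and highest points, and the receptors and SMADs lie between -0.26 and 0.09.

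The genes whose profile over the 6 arrays was most like that of a ligand were found by the root mean square difference between profiles, each centred on its own mean, for the ligand probe sets that spanned at least 1 on the log2 scale. For BMP5, with a spread of 0.54 around its mean on that measure, these were IFI27L2, an interferon-inducible gene, at 0.154, the axon guidance gene SEMA5A at 0.227 and SPON2, a matrix protein of the spondin family, at 0.231. IFI27L2 was at 6.90, 6.92 and 7.40 in v-Myb and at 8.23, 7.84 and 7.78 in N118D cultures, so that, as in BMP5, the groups were separate and N118D array 1 was highest. For BMP7 set 2, with a spread of 0.39, they were PTN, the gene of the growth factor pleiotrophin, at 0.075, USP44, a deubiquitinase gene, at 0.076 and TOR4A, a torsin family gene, at 0.077. PTN was at 6.39, 5.71 and 6.04 in v-Myb and at 6.90, 6.19 and 6.16 in N118D cultures, highest on N118D array 1 and lowest on v-Myb array 2 like BMP7. With 6 arrays and 16526 probe sets to choose from, close profiles are a description of these arrays.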

How the data were processed

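RNA of 6 cultures, 3 per group by their titles, was labelled by in vitro transcription and hybridised to Affymetrix chicken arrays, per the labels' protocols. The deposited table holds log2 values, for which GCRMA and Partek 6.4 are named per the submitters' processing notes. The GCRMA method subtracts background, normalizes arrays together and combines the probes of a set, and it shrinks differences between dim probe sets. The log2 scale was read from the values. Scanner files were not used here.

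Control (AFFX) probe sets, 96 in all, were left out. The 16526 probe sets with at least 4 on at least 3 arrays were tested with limma 3.58.1 in R 4.3.3 (lmFit and eBayes, group as the only term, two-sided, Benjamini-Hochberg adjustment over all of them, threshold 0.05). Intervals are 95% and use the moderated variance. The number of arrays limits the precision. Symbols came from the platform annotation, updated through gene identifiers in RefSeq's table for GRCg7b. Where a listed gene had several probe sets, the one with the highest mean was used.

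The ligands, the 5 pathway lists and the marker lists were chosen with earlier results of these data known. Every ligand probe set was named, and of each pathway list the 4 detected genes with the smallest p. SMAD1, SMAD5, SMAD9, BMPR1A, NOG and FURIN were named beyond that rule for their known roles, after their values had been seen. The remaining detected response genes were added so that both directions are shown. The series design names no block, so the main fit did not take the replicate numbers as pairs. Same-numbered arrays deviated from their group means with correlations of 0.40, 0.45 and -0.05 for numbers 1, 2 and 3. A shared effect of the number is therefore possible, and a replicate block was fitted as an alternative. Alternatives were the filter, normalization, eBayes settings, array weights, a replicate block, averaging a gene's probe sets, and fits without single arrays or without both arrays numbered 1.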

Additional observations from a re-analysis of the deposited data

How the results depend on the processing

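In each of the 15 alternatives 0 ligand probe sets were called, with a lowest adjusted p of 0.451 in limma, for BMP5 without v-Myb replicate 1, and others up to 1. BMP5 kept its direction in all 15, from -1.10 to -0.84 with unadjusted p of 0.00133 to 0.0107 in limma. As its groups did not overlap, leaving out or weighting arrays could not change its sign, so the kept direction adds no support. It was -0.91 without both arrays numbered 1, an alternative chosen after seeing the data. With the replicate block BMP5 was at -0.99 and BMP7 set 2 at -0.43, and no ligand was called. The standard error of BMP7 set 2 was 0.11 with the block and 0.27 without it, and its unadjusted p in limma was 0.0173 with the block, 0.0412 without v-Myb replicate 1 and 0.0418 without both arrays numbered 1, against 0.172 as reported. BMP2, whose difference was 0.0012, changed sign with quantile normalization (-0.0087) and ranged from -0.096 to 0.11 when single arrays were left out. BMP7 set 2 ranged from -0.65 to -0.22 and set 1 from -0.25 to -0.031, where -0.25 is the mean of both sets, and set 1 had no value with the filter at 6. At an unadjusted p under 0.05 the whole table gave 315 probe sets, which became 734 when unfiltered, 202 under a minimum of 6, 671 if arrays were weighted, 666 for the replicate block, 147 after averaging per gene, 1104 without both arrays numbered 1, and 176 to 1206 when single arrays were left out. Without v-Myb replicate 1 the lowest adjusted p over the whole table was 0.0553 in limma. The causes of these shifts were not tested. The counts have unlike totals: 38439 probe sets unfiltered, 12772 under a minimum of 6 and 8571 genes after averaging, against 16526 as reported. Signal over background limits BMP4, BMP6 and GDF5, for which no difference can be read.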

Other observations

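GDF2 and GDF10, which are neighbouring genes in RefSeq's annotation of GRCg7b, ordered the arrays nearly alike. GDF10 was at 7.51, 5.86 and 6.28 on v-Myb arrays 1, 2 and 3 and at 8.17, 6.99 and 7.06 on N118D arrays 1, 2 and 3. GDF2 was at 7.33, 6.17 and 5.90 and at 7.68, 6.92 and 6.84. Both were highest on the arrays numbered 1, as were BMP7 set 2 and the undetected BMP4 set 3, although BMP4 was higher on v-Myb array 1 and the others on N118D array 1. The pattern was noticed in the values and was not tested.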
